A study of Homo sapiens with 11 samples.

Results

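The G1 cell cycle genes described here are the 3 D-type cyclins CCND1, CCND2 and CCND3, their kinases CDK4 and CDK6, and 5 inhibitors of cyclin-dependent kinases, CDKN1B, CDKN1C, CDKN2A, CDKN2B and CDKN2C. They were chosen by gene symbol as a functional family, with earlier results of these data known, and make up 10 of the 40460 genes in the deposited table. Total RNA of hTert-HME1 cells was freed of ribosomal RNA and sequenced. This established line comes from human breast epithelium and was made immortal by adding telomerase. All cells were at passage 6 and had received an siRNA by lipid transfection, either BRCA2-1 against BRCA2 or the control sequence control-2, in mammary epithelial growth medium that was complete or lacked its epidermal growth factor (EGF). The 4 groups were BRCA2 siRNA without EGF (n = 3), control siRNA without EGF (n = 2), BRCA2 siRNA with EGF (n = 3) and control siRNA with EGF (n = 3). Biological replicates carry the letters A, B and C, and control siRNA without EGF has A and C. It is a single cell line with 1 siRNA sequence per target, and the labels do not say whether the replicates were separate cultures, so p-values measure the spread between these libraries.

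D-type cyclins are made in response to mitogens and bind CDK4 or CDK6. The complexes phosphorylate the retinoblastoma protein RB1 and its relatives, which releases E2F transcription factors to switch on genes of S phase entry. The INK4 inhibitors, p16 from CDKN2A, p15 from CDKN2B and p18 from CDKN2C, bind CDK4 and CDK6 and keep cyclin D off, while the CIP/KIP inhibitors p27 from CDKN1B and p57 from CDKN1C act mainly on cyclin-CDK2 complexes. In epithelial cells p15 is known as a gene induced by TGF-beta, and EGF is the mitogen on which cultured mammary epithelial cells depend.

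RefSeq promoter windows of GRCh38.p14, from 250 bases before to 50 bases after each annotated start, were matched to 7 of the 10 genes (13 windows), all but CCND1, CCND2 and CDKN1C. The windows of CDK4 and CDKN2B are shown because these genes of opposite role changed in opposite directions in the results that follow. Capitals mark the E-box CACGTG in the CDK4 window (chr12:57752261-57752560, minus strand) and the GC box GGGCGG, on either strand, in the CDKN2B window (chr9:22009256-22009555, minus strand).
CDK4: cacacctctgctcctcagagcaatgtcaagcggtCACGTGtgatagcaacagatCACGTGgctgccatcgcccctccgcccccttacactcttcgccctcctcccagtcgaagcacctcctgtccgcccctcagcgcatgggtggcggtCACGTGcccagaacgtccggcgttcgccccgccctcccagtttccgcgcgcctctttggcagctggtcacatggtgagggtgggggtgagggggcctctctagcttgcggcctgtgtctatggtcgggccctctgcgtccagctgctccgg
CDKN2B: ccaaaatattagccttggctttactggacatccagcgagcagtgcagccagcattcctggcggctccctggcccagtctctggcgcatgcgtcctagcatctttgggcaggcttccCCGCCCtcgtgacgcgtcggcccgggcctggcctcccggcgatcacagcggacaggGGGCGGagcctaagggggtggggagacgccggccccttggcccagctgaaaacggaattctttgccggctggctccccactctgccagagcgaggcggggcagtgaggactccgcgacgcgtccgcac
The CDK4 window held 3 E-boxes, beginning 216, 196 and 101 bases before the start, and the E-box occurred in 7.26% of the 35116 windows of the whole table. Of the 13 windows 4 held it, from CDK4, CDK6 and CDKN2C. The CDKN2B window held 2 GC boxes, beginning 134 and 78 bases before the start, and the GC box occurred in 45% of all windows. It was in 9 of the 13 windows, which covered all 7 genes, so neither motif was particular to the gene shown. The AP-1 motif TGANTCA was in none of the 13 windows (7.71% of all windows), and the forkhead motif TGTTTAC was in 1, a CCND3 window (3.42% of all windows). All 4 motifs were searched on both strands, and in the windows shown no match of one overlapped a match of another (the CDK4 window also held 3 GC boxes, left in lower case).

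The deposited values are log2 values with no counts, so the depth of the libraries is unknown. The siRNA's target showed no decrease. Without EGF the log2 value of BRCA2 was 12.48, 12.27 and 12.11 in libraries labelled BRCA2 siRNA, against 11.44 and 11.65 in control libraries, and with EGF it was 12.37 to 12.43 against 12.13 to 12.48. Directions below that involve the BRCA2 siRNA therefore refer to the label. All 8 markers of basal mammary epithelium passed the filter on low values, a log2 value of 3.32 in at least 2 libraries. Of 8 luminal markers 5 passed (KRT8, KRT18, ESR1, GATA3 and FOXA1) and KRT19, ELF5 and PGR did not. Of 3 measured endothelial markers TEK passed and CDH5 and VWF did not, and 0 of 3 measured leukocyte markers passed. The log2 of the summed linear values of 8 fibroblast markers was 12.40 to 13.12 in BRCA2 siRNA libraries without EGF, 13.42 to 13.53 in control libraries without EGF, 11.40 to 11.48 in BRCA2 siRNA libraries with EGF and 11.23 to 11.54 in control libraries with EGF. Of these markers COL1A2 was below the filter, and their part in the results below was not tested. In bulk RNA, fewer cells of a type and less RNA per cell cannot be told apart. In every gene the mean of the 4 replicate A libraries equalled the mean of the other 7 libraries, so the deposited values had been centred between them.

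All but 1 of the genes were well expressed, and CCND2 and CDK6 had the highest levels per exon length. Mean log2 values over the 11 libraries, less the log2 of the exon length in kilobases, were 12.10 for CCND2, 11.44 for CDK6, 10.01 for CCND1, 9.75 for CDK4, 9.67 for CDKN1B, 9.26 for CDKN2B, 8.31 for CDKN2C, 7.83 for CCND3, 7.77 for CDKN2A and 0.37 for CDKN1C. On this per-kilobase scale the 11 libraries of CCND2 (11.94 to 12.30) lay above all those of CDK6 (11.23 to 11.75), and those of CDK6 above all those of CCND1 (9.05 to 10.75). CCND1, CDK4, CDKN1B and CDKN2B overlapped one another, and so did CDKN2C, CCND3 and CDKN2A. CDKN1C, at 1.45 to 1.99 on the deposited log2 scale, was below the filter in every library and was not tested, which left 9 genes. The row of CDKN2A covers the transcripts of both p16 and ARF, which a gene-level value cannot separate.

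**Figure D1:**
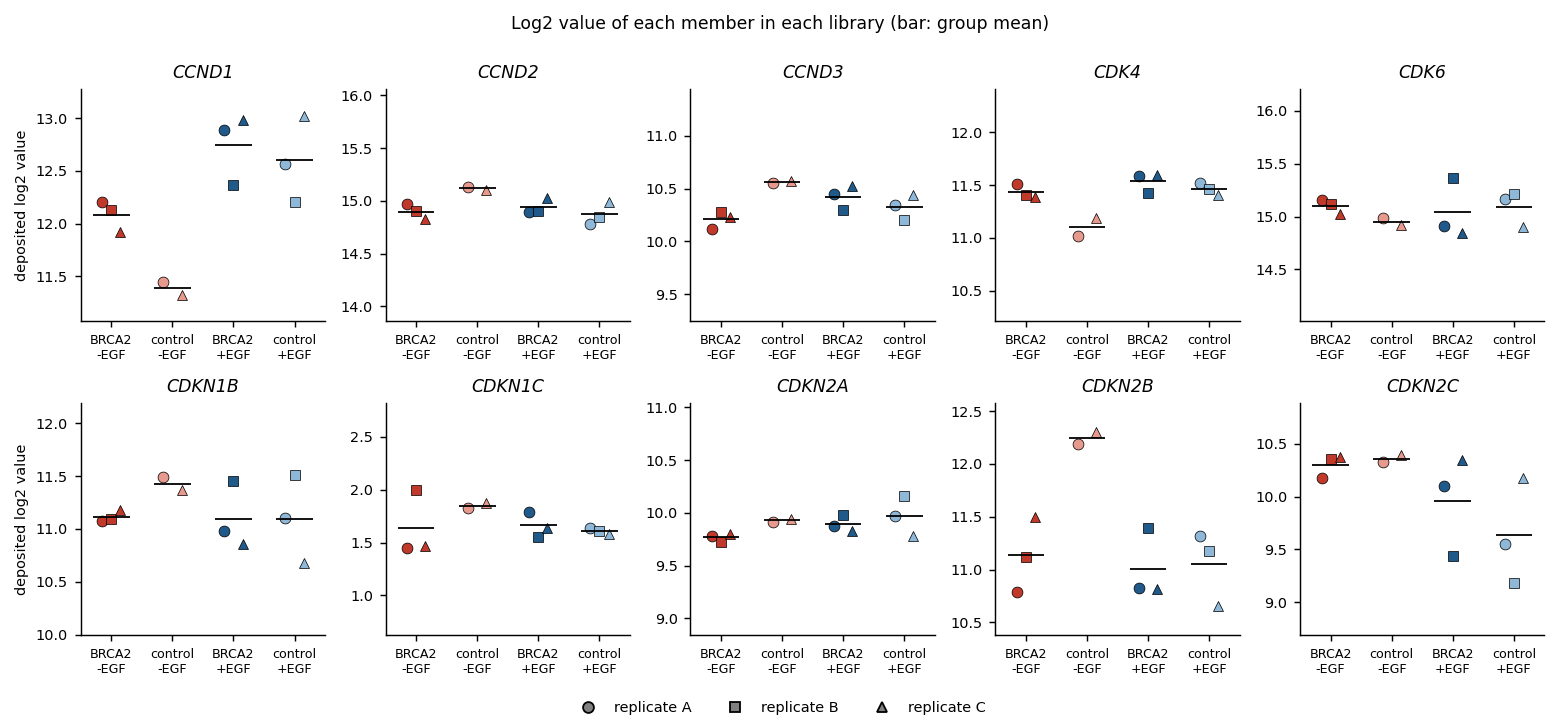
Deposited log2 values (y axis, the same height in log2 units in each panel) of the 10 genes in the 11 libraries by group (x axis), with replicate letters as marker shapes and group means as bars. The 2 control libraries without EGF stand below all others for CCND1 and CDK4 and above all others for CDKN2B.

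EGF withdrawal under control siRNA asks what the G1 machinery looks like when these cells lose their mitogen. CCND1 and CDK4, a cyclin and a kinase that drive G1, fell, while the inhibitors CDKN2B and CDKN2C and the cyclin CCND2 rose. The remaining CCND3, CDK6, CDKN1B and CDKN2A did not pass the test. Thus 3 of 9 genes rose and 2 fell, against 24.7% and 26.1% of the 17945 genes tested, so the share of calls was near that of all genes (50.8% in either direction). The median log2 difference was 0.24 over the 9 genes and -0.0036 over all genes.

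CCND1, the D cyclin best known as a target of EGF receptor and MAPK signalling, was at log2 values of 11.45 and 11.32 in control libraries without EGF, against 12.57, 12.21 and 13.02 in control libraries with EGF. The groups did not overlap, which held for 66.5% of all genes tested in this comparison. CCND1 fell by 1.21 on the log2 scale, with a moderated standard error of 0.22 (n = 2 and 3, limma adjusted p = 0.00105), which is 2.32-fold lower. The difference was -1.12 within replicate A and -1.70 within replicate C, and with only replicates B and C it was -1.29 with an adjusted p of 0.0755. The exons of CCND1 overlap 497 bases of LTO1 on the other strand in GENCODE 29, and whether the authors counted by strand is not known here. LTO1 averaged 8.66 without EGF and 9.05 with EGF, a difference of -0.39 ± 0.20 that did not pass (adjusted p = 0.128) but did without control replicate C with EGF (-0.62, 0.00454). With EGF, CCND1 also differed among replicates, being 0.72 lower in B than in C on the log2 scale, averaged over both siRNAs.

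The other D cyclins had differences of the opposite sign. CCND2, the most abundant of the 3, was at 15.13 and 15.10 without EGF, against 14.78, 14.85 and 14.99 with EGF, and rose by 0.25 ± 0.09 on the log2 scale (± moderated standard error, as below; limma adjusted p = 0.0382). That call is near the threshold, since it held in 9 of 19 other settings, with adjusted p from 0.0111 to 0.447. It was lost without either control library lacking EGF (0.23 without A, adjusted p = 0.169; 0.26 without C, 0.121), without control replicate A or B with EGF (0.20, adjusted p = 0.128, and 0.23, 0.0756) and without BRCA2 siRNA replicate B lacking EGF (0.0605). CCND3 was at 10.55 and 10.57 without EGF, against 10.34, 10.20 and 10.44 with EGF, a log2 difference of 0.24 ± 0.10 that did not pass (adjusted p = 0.073). It passed under quantile normalization (0.40, adjusted p = 0.0103) and without control replicate C with EGF (0.29, 0.032).

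Of the kinases, CDK4 was at 11.02 and 11.19 without EGF, against 11.52, 11.46 and 11.41 with EGF. Both libraries without EGF lay below the 3 with EGF, and CDK4 fell by 0.36 on the log2 scale (standard error 0.09, adjusted p = 0.0065), or 1.28-fold lower. The call was lost under quantile normalization (-0.13, adjusted p = 0.254), with only replicates B and C (-0.24, 0.296) and without control replicate A lacking EGF (-0.27, 0.0903). In GENCODE 29 the exons of CDK4 overlap 1369 bases of TSPAN31 on the other strand, with the same limit. TSPAN31 itself differed by -0.37 ± 0.16 (adjusted p = 0.0811), and passed without control replicate C with EGF (-0.51, 0.0137) or BRCA2 siRNA replicate B with EGF (-0.37, 0.0389). CDK6, the more abundant kinase, was at 14.98 and 14.92 without EGF, against 15.17, 15.22 and 14.90 with EGF, and the groups overlapped. Its log2 difference was -0.14, with a 95% interval from -0.47 to 0.18 (adjusted p = 0.439).

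Among the INK4 inhibitors, CDKN2B moved most of the 9 genes upward. Its log2 values were 12.19 and 12.30 in control libraries without EGF, against 11.32, 11.17 and 10.66 in control libraries with EGF. The groups lay well apart, and CDKN2B rose by 1.20 ± 0.24 on the log2 scale, or 2.29-fold (adjusted p = 0.00191), in all 19 other settings as well (1.00 to 1.41, adjusted p from 0.000624 to 0.0451). Within replicate A the difference was 0.87 and within replicate C 1.64. The antisense RNA CDKN2B-AS1, whose gene runs across CDKN2B on the other strand and overlaps 341 exonic bases of CDKN2A, rose by 1.17 ± 0.13 (adjusted p = 4.95e-05). Its exons overlap none of CDKN2B in GENCODE 29, so the limit of counting without strand touches CDKN2A here.

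CDKN2C was at 10.33 and 10.39 without EGF, against 9.55, 9.18 and 10.18 with EGF. The groups did not overlap, but the spread with EGF was wide. Averaged over both siRNAs, replicate B was 0.95 below replicate C on the log2 scale. CDKN2C rose by 0.72 ± 0.28 (adjusted p = 0.0493), a call that held in 5 of 19 other settings (0.49 to 0.99, adjusted p from 0.00443 to 0.351). Leaving out any single library ended it except BRCA2 siRNA replicates B and C with EGF and control replicate C with EGF, with values from 0.49 without control replicate B with EGF (adjusted p = 0.148) to 0.75 without control replicate A lacking EGF (0.139). CDKN2A was at 9.92 and 9.94 without EGF, against 9.97, 10.16 and 9.78 with EGF, a difference of -0.04 with a 95% interval from -0.28 to 0.20 (adjusted p = 0.769).

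CDKN1B, whose product p27 is held in check by mitogens largely through its turnover as a protein, was at 11.49 and 11.36 without EGF, against 11.10, 11.51 and 10.68 with EGF. The groups overlapped because replicate B with EGF was as high as the libraries without EGF. The log2 difference of 0.33 ± 0.21 did not pass (adjusted p = 0.218). Without that library, control replicate B with EGF, the difference was 0.54 and passed (adjusted p = 0.0354), as it did under quantile normalization (0.55, 0.0417) and with the replicate block (0.46, 0.033), which makes 3 of 19 other settings. The untested CDKN1C was at 1.82 and 1.88 without EGF, against 1.64, 1.61 and 1.58 with EGF.

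**Figure D2:**
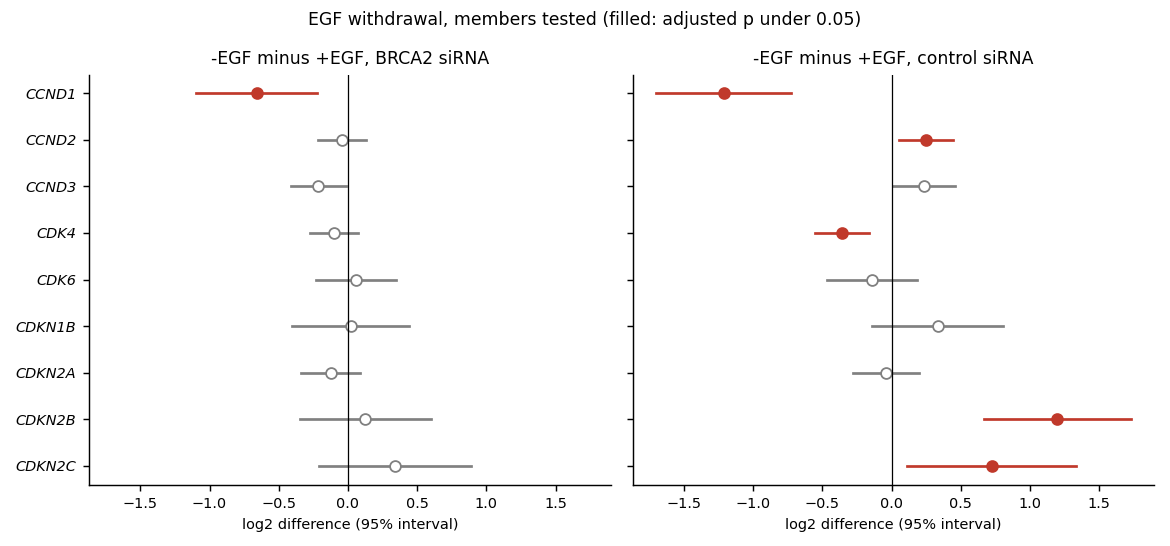
Log2 difference without EGF minus with EGF (x axis) of the 9 genes tested (y axis), under BRCA2 siRNA (left) and control siRNA (right), with 95% intervals from the limma fit. Filled points passed an adjusted p of 0.05, which was CCND1 alone under BRCA2 siRNA and CCND1, CCND2, CDK4, CDKN2B and CDKN2C under control siRNA.

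Among libraries labelled BRCA2 siRNA, EGF withdrawal changed 1 of the 9 genes, CCND1, against 13.4% of all genes tested that rose and 13.8% that fell (27.1% in all). The median log2 difference was -0.04 over the 9 genes and 0.0032 over all genes. CCND1 was at 12.21, 12.13 and 11.92 without EGF, against 12.89, 12.36 and 12.98 with EGF. The groups did not overlap, as was the case in 46.6% of all genes tested. CCND1 fell by 0.66 on the log2 scale (standard error 0.20, n = 3 and 3, limma adjusted p = 0.0312), or 1.58-fold lower, with differences of -0.68, -0.23 and -1.06 within replicates A, B and C. The call was lost under quantile normalization (-0.52, adjusted p = 0.105), with only replicates B and C (-0.65, 0.29), and without BRCA2 siRNA replicates A (-0.72, 0.0515), B (-0.68, 0.0725) or C (-0.58, 0.111) lacking EGF or A (-0.59, 0.113) or C (-0.54, 0.0847) with EGF.

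The INK4 genes that rose under control siRNA did not pass here. CDKN2B was at 10.78, 11.12 and 11.50 without EGF, against 10.82, 11.39 and 10.81 with EGF, and these groups overlapped. Its log2 difference was 0.13 with a 95% interval from -0.35 to 0.60 (adjusted p = 0.688). The antisense CDKN2B-AS1 did rise here, by 0.44 on the log2 scale (limma adjusted p = 0.0196). Its call was lost without BRCA2 siRNA replicate B (0.43, 0.063) or C (0.34, 0.08) lacking EGF or A with EGF (0.45, 0.0584). CDKN2C was at 10.18, 10.36 and 10.38 without EGF, against 10.10, 9.44 and 10.35 with EGF, a difference of 0.34 with an interval from -0.21 to 0.89 (adjusted p = 0.323). Most of that difference lay in replicate B, at 0.92, with 0.07 in A and 0.03 in C.

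The difference of CCND3 had the opposite sign from that under control siRNA. It was at 10.11, 10.28 and 10.23 without EGF, against 10.44, 10.30 and 10.53 with EGF, and the groups did not overlap. The log2 difference of -0.22 ± 0.09 did not pass (adjusted p = 0.0981). CCND2 (-0.04), CDK4 (-0.10), CDK6 (0.06), CDKN1B (0.02) and CDKN2A (-0.13) did not pass either, with adjusted p from 0.352 to 0.947, and their 95% intervals lay between -0.40 and 0.44.

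**Figure D3:**
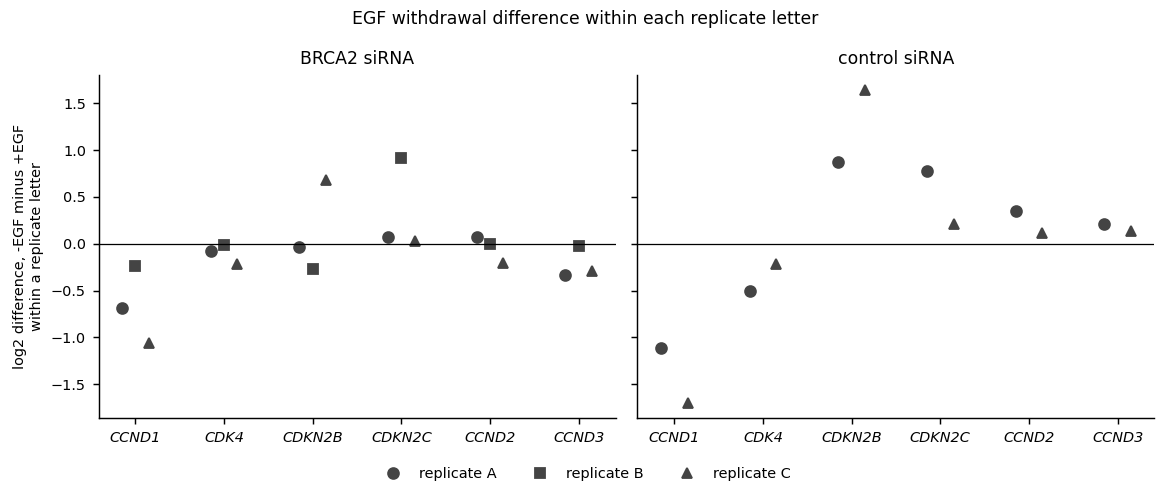
Log2 difference without EGF minus with EGF within each replicate letter (y axis) for the 6 genes called in any comparison (x axis), under BRCA2 siRNA (left, replicates A, B and C) and control siRNA (right, replicates A and C). CCND1 lies below 0 in all 5 differences, while CDKN2B lies at 0.87 and 1.64 under control siRNA and between -0.27 and 0.69 under BRCA2 siRNA.

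BRCA2 siRNA against control siRNA without EGF asks whether cells without their mitogen differ by siRNA. In libraries labelled BRCA2 siRNA CCND1 and CDK4 were higher and CDKN2B and CCND3 lower, so 2 of 9 genes rose and 2 fell, against 11.2% and 9.36% of all genes tested (20.5% in all). The median log2 difference was -0.16 over the 9 genes and 0.0062 over all genes. This comparison shares its control libraries without EGF with the withdrawal under control siRNA, so a chance deviation of those 2 libraries would enter both with opposite sign.

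CDKN2B had log2 values of 10.78, 11.12 and 11.50 with BRCA2 siRNA, against 12.19 and 12.30 with control siRNA. All 3 lay below both controls, and groups without overlap were found in 62.3% of all genes tested. CDKN2B fell by 1.11 on the log2 scale (standard error 0.24, n = 3 and 2, limma adjusted p = 0.00994), or 2.16-fold lower, with differences of -1.41 within replicate A and -0.80 within replicate C. The call was lost without control replicate A (-1.16, adjusted p = 0.0727) or C lacking EGF (-1.06, 0.0737) and with only replicates B and C (-0.99, 0.366). CDKN2B-AS1 also fell, by 0.61 on the log2 scale (standard error 0.13, adjusted p = 0.00951). That call too was lost in the fits that leave a single control library without EGF. Its differences there were -0.57 without replicate A, -0.65 without replicate C and -0.47 with only replicates B and C. CDKN2C (-0.06, adjusted p = 0.913), CDKN2A (-0.16, 0.33) and CDKN1B (-0.31, 0.331) did not pass. CDKN1B was at 11.08 to 11.18 with BRCA2 siRNA, against 11.36 to 11.49 with control siRNA. It passed in 1 of 19 other settings, the limma fit to only the groups compared (adjusted p = 0.00524), so CDKN1B was not shown to be unchanged.

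CCND1 was at 12.21, 12.13 and 11.92 with BRCA2 siRNA, against 11.45 and 11.32 with control siRNA, a rise of 0.70 ± 0.22 on the log2 scale or 1.62-fold (adjusted p = 0.0464). The sign was the same in all 19 other settings (0.59 to 0.82), and the call held in 7 of them. It was lost without any 1 of the 5 libraries compared (0.63 to 0.78). Leaving out BRCA2 siRNA replicate A (limma adjusted p = 0.0617) or control replicate A with EGF (0.0655), which enter only through the spread, ended it too. So did no filter, quantile normalization, a term for replicate A, no mean-variance trend and only replicates B and C. The smallest limma adjusted p over the 19 settings was 0.000352.

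CDK4 was at 11.51, 11.40 and 11.39 with BRCA2 siRNA, against 11.02 and 11.19 with control siRNA, and rose by 0.33 ± 0.09 (adjusted p = 0.0259). CCND3 was at 10.11, 10.28 and 10.23 with BRCA2 siRNA, against 10.55 and 10.57 with control siRNA, and fell by 0.35 on the log2 scale (standard error 0.10, adjusted p = 0.0315). Neither pair of groups overlapped, and each call held in 12 of 19 other settings. Without control replicate A lacking EGF the differences were 0.24 for CDK4 (adjusted p = 0.238) and -0.36 for CCND3 (0.155), and without control replicate C lacking EGF they were 0.41 (0.0584) and -0.34 (0.152). Leaving out BRCA2 siRNA replicate A or B lacking EGF ended both calls too (CDK4 0.29 and 0.34, adjusted p = 0.0947 and 0.063; CCND3 -0.30 and -0.39, 0.112 and 0.058), and leaving out replicate C ended that of CCND3 (-0.36, 0.0529). CCND2, at 14.97, 14.90 and 14.83 against 15.13 and 15.10, differed by -0.22 ± 0.09 and did not pass (adjusted p = 0.0991), and neither did CDK6 (0.15, adjusted p = 0.502). In 1 of 19 other settings, the limma fit to only the groups compared, CCND2 passed (adjusted p = 0.0231).

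**Figure D4:**
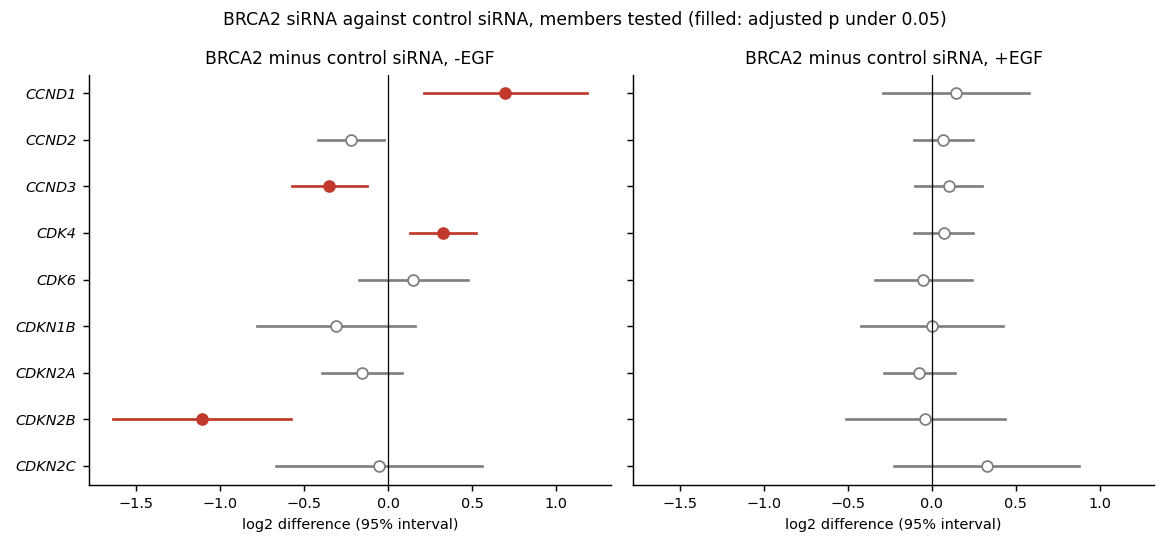
Log2 difference of BRCA2 siRNA minus control siRNA (x axis) for the 9 genes tested (y axis), without EGF (left) and with EGF (right), with 95% intervals from the limma fit. Filled points passed an adjusted p of 0.05, which was CCND1, CCND3, CDK4 and CDKN2B without EGF and none of the 9 with EGF.

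With EGF present, BRCA2 siRNA against control siRNA gave 0 calls among the 9 genes by limma, also at an unadjusted p of 0.05, where the smallest p was 0.219 (CDKN2C). Among all 17945 genes 1 was called (0.00557%). The groups did not overlap in 0 of the 9 genes and in 5.88% of all genes. CCND1 was at 12.89, 12.36 and 12.98 with BRCA2 siRNA, against 12.57, 12.21 and 13.02 with control siRNA, a log2 difference of 0.14 with a 95% interval from -0.29 to 0.58. For CDKN2B, at 10.82, 11.39 and 10.81 against 11.32, 11.17 and 10.66, it was -0.04 with an interval from -0.51 to 0.43. The replicate letters differed too, in differences averaged over both siRNAs. With EGF, replicate B minus replicate C was -0.72 for CCND1, 0.72 for CDKN1B, 0.55 for CDKN2B, 0.42 for CDK6 and -0.95 for CDKN2C on the log2 scale. For CDK4 and CCND2 it was -0.06 and -0.13.

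The test of the difference between the withdrawals, BRCA2 siRNA minus control siRNA, passed for 0 of the 9 genes by limma, against 3.32% of all genes tested (1.38% with a positive and 1.93% with a negative difference). At an unadjusted p of 0.05 it passed for CCND3, CDKN2B and CCND2. The interaction was -1.07 ± 0.32 on the log2 scale for CDKN2B (withdrawal effects of 0.13 with BRCA2 siRNA and 1.20 with control siRNA, limma unadjusted p = 0.00685, adjusted p = 0.0901). It was -0.45 ± 0.14 for CCND3 (-0.22 and 0.24, limma unadjusted p = 0.00676, adjusted p = 0.0894) and -0.29 ± 0.12 for CCND2 (-0.04 and 0.25, limma unadjusted p = 0.0332, adjusted p = 0.186). For CCND1 it was 0.55 with a 95% interval from -0.10 to 1.21 (adjusted p = 0.303), and for CDK4 0.26 with an interval from -0.01 to 0.52 (adjusted p = 0.236). A different response of these genes to withdrawal under the 2 siRNAs was therefore not shown at the adjusted threshold. Without BRCA2 siRNA replicate C lacking EGF the CDKN2B interaction was -1.25 and passed (adjusted p = 0.0474), and without control replicate C with EGF the CCND3 interaction was -0.51 and passed (0.0408).

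Other genes of the G1/S pathway were followed in 4 lists written for this purpose, and all 47 genes of these lists were tested. In the cyclin E and CDK2 arm 6 of 9 genes fell and 0 rose on withdrawal under control siRNA, against 26.1% and 24.7% of all genes tested, with a median of -0.69. They were the CDK2 activating phosphatase CDC25A (-0.95), CDK2 (-0.38), the 3 parts of the CDK-activating kinase, CDK7 (-0.69), CCNH (-0.87) and MNAT1 (-0.82), and the inhibitor CDKN1A (-1.04), a p53 target whose product is p21. Under BRCA2 siRNA 3 of 9 fell, against 13.8% of all genes, namely CCNH (-0.70), MNAT1 (-0.60) and CDKN1A (-0.92). The cyclins CCNE1 and CCNE2 did not pass in either (-0.24 and 0.55 under control siRNA). Their replicate B minus replicate C with EGF, averaged over both siRNAs, was -1.47 and -2.12, so these cyclins were not shown to be unchanged. Without EGF, BRCA2 siRNA against control siRNA called CDC25A alone (11.2% of all genes were called higher), which was 0.97 ± 0.26 higher on the log2 scale. CCNE1 and CCNE2 did not pass there, but their groups did not overlap, as in 62.3% of all genes tested. Group means were 7.91 with BRCA2 siRNA against 6.87 with control siRNA for CCNE1, and 9.11 against 8.51 for CCNE2. The main fit also takes in the spread with EGF, where the standard deviations of CCNE1 were 0.79 and 0.81. These cyclins were thus not shown to be unchanged between the siRNAs without EGF.

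Of 13 pocket proteins and E2F factors 4 fell and 1 rose on withdrawal under control siRNA, with a median of -0.14. Over all genes 26.1% fell and 24.7% rose, so the share that fell was near that of all genes. RB1 fell by 0.28, the repressor E2F7 by 1.38, E2F4 by 0.86 and E2F6 by 0.26 on the log2 scale, while the E2F partner TFDP2 rose by 0.40. Under BRCA2 siRNA E2F3 rose by 0.29 and E2F5 fell by 0.52 (13.4% and 13.8% of all genes). Without EGF, BRCA2 siRNA against control siRNA gave higher E2F3 (0.46), E2F4 (0.55) and E2F7 (0.92) and lower E2F5 (-0.45), 3 higher and 1 lower of 13, against 11.2% and 9.36% of all genes.

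Among 13 genes for the turnover of D cyclins and p27, 4 fell and 2 rose on withdrawal under control siRNA (median -0.13), and the share called was near the 50.8% of all genes. CKS1B, the cofactor with which SKP2 recognises p27, fell by 1.23, the cullin CUL1 by 0.35, the cyclin D1 F-box protein FBXO4 by 0.51 and UHRF2 by 0.54. CRYAB, a small heat shock protein that works with FBXO4, rose by 2.58 and the cyclin E F-box protein FBXW7 by 0.45. Under BRCA2 siRNA CKS1B fell by 0.71 and UHRF2 by 0.41, and CRYAB rose by 1.16 (13.8% of all genes fell and 13.4% rose). SKP2 itself did not pass in either comparison (0.73 under BRCA2 siRNA and 0.87 under control siRNA). Its replicates with EGF differed widely, with replicate B minus replicate C at -1.98 averaged over both siRNAs, so SKP2 was not shown to be unchanged. Without EGF, BRCA2 siRNA against control siRNA gave higher CKS1B (0.57) and CUL1 (0.36) and lower CRYAB (-1.43) and FBXW7 (-0.30), with 11.2% of all genes higher and 9.36% lower.

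Of 12 G1/S transcripts under E2F control, 4 fell and 0 rose on withdrawal under control siRNA (median -0.41). The share that fell was near the 26.1% of all genes, and 24.7% of all genes rose. Those that fell were the cyclin CCNA2 (-1.15), the licensing factor CDC6 (-1.05), CDC45, a part of the replicative helicase (-1.50) and the thymidine kinase TK1 (-0.79). Under BRCA2 siRNA 1 of 12 fell, CDC45 (-0.57), against 13.8% of all genes. Replicate B minus replicate C with EGF, averaged over both siRNAs, ran from -1.56 (PCNA) to -0.13 (CDC6) in this list. Genes of the list that did not pass were therefore not shown to be unchanged. Without EGF, BRCA2 siRNA against control siRNA gave 5 higher of 12, against 11.2% of all genes, namely CCNA2 (0.91), CDC6 (1.02), CDC45 (1.02), TK1 (0.92) and MCM5 (0.61), with a list median of 0.80 against 0.0062 over all genes. With EGF no gene of the 4 lists was called by limma between the siRNAs.

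Leaving out each of the 11 libraries in turn reversed 0 of these calls. Of the 21 calls for withdrawal under control siRNA 13 held each time, among them CDK7, CCNH, MNAT1, CDKN1A, E2F4, E2F7, CKS1B, CRYAB, CCNA2, CDC6 and CDC45, as did 6 of 9 under BRCA2 siRNA, namely CCNH, MNAT1, CDKN1A, CKS1B, CRYAB and UHRF2. Of the 14 calls for BRCA2 siRNA against control siRNA without EGF, CRYAB, CDC6 and CDC45 held each time, and the other 11 were lost without control replicate A lacking EGF, 8 of them also without control replicate C.

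**Figure D5:**
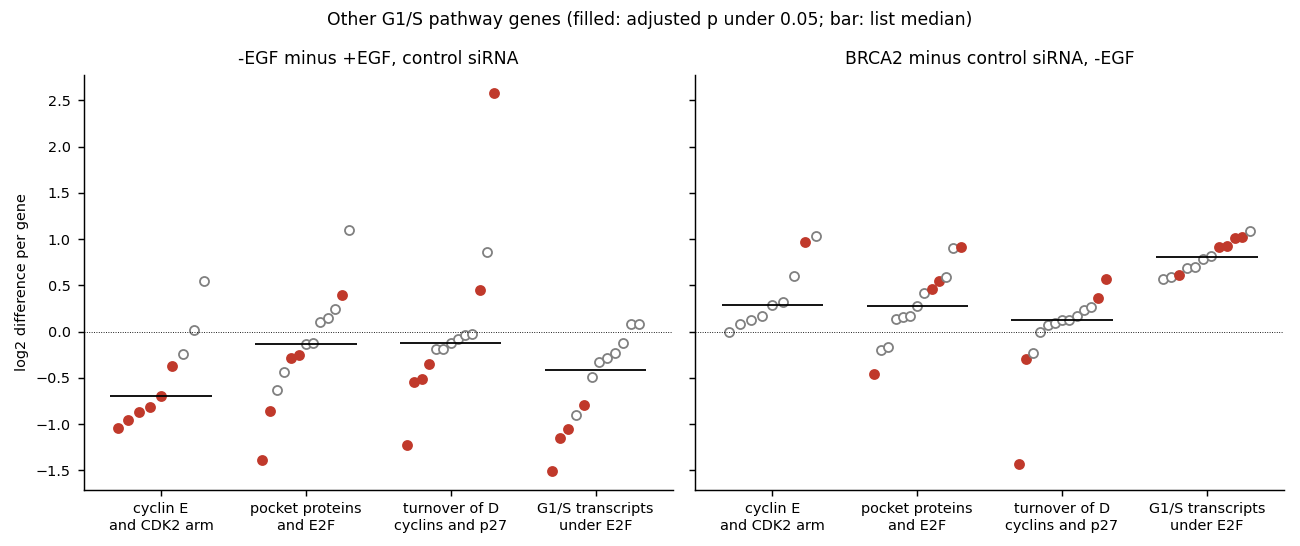
Log2 difference (y axis) of each gene in the 4 lists of other G1/S pathway genes (x axis), for withdrawal under control siRNA (left) and for BRCA2 siRNA minus control siRNA without EGF (right). Filled points passed an adjusted p of 0.05 and bars are list medians, such as -0.41 on the left and 0.80 on the right for the G1/S transcripts under E2F.

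Over the 11 libraries the genes whose log2 values followed CCND1 most closely, among 17176 tested genes with a symbol, were PHACTR2 (Pearson r = 0.989), CAMK2N1 (0.988), CDH11 (0.987), TOMM40L (0.987) and HHIP-AS1 (0.986). For CDKN1B they were METRNL (0.981), OPTN (0.977), ZNF185 (0.972), UBE2H (0.97) and ZBTB43 (0.965). These values describe libraries that share the EGF groups, the replicate spread and the centring.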

How the data were processed

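RNA was extracted with AllPrep, depleted with RiboZero and made into ScriptSeq v2 libraries, per the labels' protocols. The authors deposited 1 table of normalized log2 values for 40460 Ensembl genes in 11 libraries (-2.941 to 20.62). The submitters' processing notes name hg19, TopHat2 2.0.11, DESeq2 and limma without roles. The sources used here do not give the counter, annotation or transform, and fold changes may be compressed by the transform. The means of replicate A and of B with C agreed within 7.2e-09 in every gene.

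Symbols came from a gene name table (37585 genes, 92.9%). Exon lengths and overlaps came from GENCODE 29 on GRCh38, a build other than that of the files, so coordinates are given only for the RefSeq promoter windows, on GRCh38.p14. Genes at a linear value of 10 (log2 3.32) in at least 2 libraries were tested (17945). limma 3.58.1 under R 4.3.3 fitted 4 group means to all 11 libraries with variances moderated along a trend in mean level (eBayes, 7 residual degrees of freedom). This main fit does not account for the centring of replicate A, so p-values near the threshold may be too small. A term for replicate A left 1 member higher on withdrawal under control siRNA, against 3 in the main fit, with 2 lower in both. Tests were two-sided, with Benjamini-Hochberg adjustment over all genes tested and a threshold of 0.05. Errors after ± are moderated standard errors and intervals are 95%. The script was tested on simulated data with independent noise, without the centring of replicate A or any spread shared within replicate letters. That test therefore cannot show how accurate the p-values are for these libraries. The 19 other settings are 8 changes of filter, scaling, libraries or model and the omission of each of the 11 libraries. All 10 members are named, and from each pathway list up to 6 called genes per comparison. The members, lists and tests were chosen with earlier results of these data known.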

Additional observations from a re-analysis of the deposited data

Results flagged for a closer look

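In 5 genes that are not among the 10 but belong to their pathway lists or overlap them, the withdrawal effect differed between the siRNAs by the limma interaction test. Each difference below subtracts the log2 effect under control siRNA from the effect under BRCA2 siRNA. It was 0.66 for E2F4 (withdrawal effects of -0.20 and -0.86, adjusted p = 0.0435), 0.93 for CDC6 (-0.12 and -1.05, adjusted p = 0.0331) and 0.93 for CDC45 (-0.57 and -1.50, adjusted p = 0.0373). It was -1.41 for CRYAB (1.16 and 2.58, adjusted p = 0.0318) and -0.74 for CDKN2B-AS1 (0.44 and 1.17, adjusted p = 0.0473). Each of the 5 calls was lost on leaving out 1 or more libraries, including either control library without EGF. The call of CDKN2B-AS1 held only on leaving out BRCA2 siRNA replicate C lacking EGF or control replicate C with EGF. It was also lost with no filter (limma adjusted p = 0.0839), a term for replicate A (0.0569) or no mean-variance trend (0.0516).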

How the results depend on the processing

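The members' differences were recomputed under 19 other settings (18 for the interaction, which has no fit with only the groups compared). Of 846 values 773 kept their side of the threshold, 64 were no longer past it and 9 were newly past it. The sign changed in 30 values of 14 results, 0 of them past the threshold before or after (sizes up to 0.209 after the change, adjusted p of 0.209 or more). Depth is unknown, and control siRNA without EGF has 2 libraries, which enter the withdrawal under control siRNA, the comparison of siRNAs without EGF and the interaction. A change of pseudocount was not run because the values came as logs. The cause of the shifts below was not tested, except that fits with fewer libraries have fewer degrees of freedom.

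Withdrawal under control siRNA called 4439 genes higher and 4682 lower of all tested. The stricter filter gave 2461 higher, among fewer genes tested, and only replicates B and C gave 1172 higher and 902 lower. Of the members, 3 higher and 2 lower, quantile normalization called 5 higher and 1 lower, only replicates B and C 1 higher and 0 lower, and 1 was higher with only the groups compared, a term for replicate A or no mean-variance trend. Leaving out 1 library gave 1 to 4 members higher and 1 to 2 lower.

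Withdrawal under BRCA2 siRNA called 2397 higher and 2474 lower. The stricter filter gave 1567 higher, and only replicates B and C 33 higher and 14 lower. Leaving out 1 library gave 1122 to 2932 higher and 1106 to 3270 lower. The 1 member lower became 0 in the quantile-normalized values and in the fit to replicates B and C alone, and was 0 to 1 on leaving out 1 library.

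BRCA2 siRNA against control siRNA without EGF called 2007 higher and 1680 lower. Only the groups compared gave 3915 and 2861, only replicates B and C gave 0 and 0, and leaving out 1 library gave 246 to 2665 higher and 378 to 2102 lower, lowest without control replicate A lacking EGF. Of the members, 2 higher and 2 lower, 0 were higher and 1 lower with no filter, 0 higher under quantile normalization, 1 higher with a term for replicate A or no mean-variance trend, 4 lower with only the groups compared, and 0 either way with only replicates B and C. Leaving out 1 library gave 0 to 2 higher and 0 to 2 lower. With EGF the 1 gene called lower became 0 under the stricter filter, only the groups compared, the replicate block, a term for replicate A and only replicates B and C, and was 0 to 1 on leaving out 1 library.

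The interaction called 248 higher and 347 lower. It called 121 higher with no filter, 106 higher with no mean-variance trend, 0 in each direction in the fit to replicates B and C alone, and 0 to 855 higher and 0 to 751 lower on leaving out 1 library. Members lower were 0 to 1 on leaving out 1 library.

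The replicate letters were not taken to pair the samples. Deviations from the group means correlated between -0.366 and 0.7 over 15 same-letter pairs, 2 of them above 0.1. Of 11 libraries 4 correlated best with their own letter. The centring ties the deviations of replicate A together, so its pairs (-0.366 to -0.118) could not show pairing. With EGF, the 2 siRNA groups correlated at 0.695 in B and 0.7 in C, against -0.642 and -0.746 between B and C. Other pairs sharing B or C ran from -0.129 to 0.0372. Within B and within C the 2 siRNA groups with EGF thus shared a pattern, opposite between the letters, which the main fit leaves in the spread. With the replicate block the interaction called 442 genes higher, withdrawal under control siRNA still called 3 members higher and 2 lower, CDKN1B rose by 0.46 (adjusted p = 0.033) and CCND2 did not pass (0.24, 0.0685).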
